A study of Homo sapiens with 12 samples.

Results

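The comparison described here is that of the BET inhibitor CPI203 given alone with Control, in 3 human lymphoma lines. OCI-LY3, OCI-HBL1 and OCI-LY10 are established lines of the activated B cell-like type of diffuse large cell lymphoma. The comparison rests on 6 of the 12 expression arrays of the series, the 3 whose treatment label is CPI203 and the 3 whose label is Control. Each line gave 1 array of each kind, so the arrays were paired by line and n = 3 in each group. CPI203 was given at 500 nM, and the labels put both groups at 24 h. The protocol text names 18 h for the BET inhibitor where it is combined with an IRAK inhibitor, and it gives no other duration. The label of the Control arrays does not say which vehicle, if any, was added. The other 6 arrays are of the same lines with an IRAK inhibitor at 50 µM (IRAKi, label time 6 h) or with both agents (Combo, label time 24 h). They entered the statistical model, and they served to ask whether CPI203 acted on top of the IRAK inhibitor as it did alone.

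BET proteins carry paired bromodomains that bind acetylated lysines of histones. At promoters and enhancers they help to bring in Mediator and the elongation kinase P-TEFb, which frees paused RNA polymerase II. In B cell lymphomas, BET inhibitors are known for lowering genes with strong enhancers, many of which encode B cell lineage factors, and for releasing P-TEFb from the RNA-protein complex that holds it inactive. Activated B cell-like lymphoma depends on chronic B cell receptor, MYD88 and NF-kB signalling.

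Each of the 6 arrays holds 49386 probe sets with log2 levels, and the 45253 probe sets that carry 1 gene stand for 18239 genes. A gene was tested when its brightest probe set lay above a log2 level of 4.20, the filter level, in at least 3 of the 12 arrays. This kept 13120 genes and left out 5119. Array medians lay between 4.64 and 4.74, and the correlation between pairs of arrays between 0.921 and 0.991. The B cell marker list had 8 of 9 genes with a probe set of their own, all of them tested, at mean levels from 6.92 to 12.3, with MS4A1, which encodes CD20, the highest. T and NK cell markers had mean levels of at most 4.76, myeloid markers of at most 5.87 and stromal or epithelial markers of at most 4.69. The myeloid maximum is ITGAX, an integrin gene, which stood at 8.13, 3.52 and 7.93 in the Control arrays of OCI-LY3, OCI-HBL1 and OCI-LY10 and at 6.60, 3.58 and 6.27 with CPI203. Among the markers of those other cell types limma called 0 of 17 tested genes, with 2 higher and 2 lower at an unadjusted p under 0.05. With trended and robust variances, and also without OCI-HBL1, it called 1, a myeloid marker. In bulk RNA a change in every cell and a change in the share of cells cannot be told apart.

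CPI203 changed the RNA level of about as many genes upward as downward, and the falls were steeper. With the line as a term in the model, limma called 1723 of 13120 genes at an adjusted p below 0.05, or 13.1% of those tested. Of these, 908 rose (6.92%) and 815 fell (6.21%), and no called gene had lines that moved in opposite directions. At least 2-fold changes were 160 rises and 220 falls, and changes of at least 4-fold were 8 rises and 18 falls. The number of calls rests on all 3 lines. The fits that leave out OCI-LY3, OCI-HBL1 or OCI-LY10 gave 216, 720 and 282 calls in that order, and 109 of the 1723 genes were called the same way in each of those 3 fits.

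The split between rises and falls depends on the scale. RNA spiked into each sample before labelling (poly-A spike-ins) read higher with CPI203 than in Control by 0.306 ± 0.170 (log2, SD, n = 3), at 0.111 for OCI-LY3, 0.379 for OCI-HBL1 and 0.428 for the OCI-LY10 pair. When each array was scaled to these spike-ins, the median gene moved by -0.298, 165 genes rose and 1595 fell. Control RNA added at hybridization, after labelling, read higher by 0.175 ± 0.168. Changes are given on the scale as deposited, where the median gene moved by 0.00811, and where a list's median turns sign under spike-in scaling both values are given.

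**Figure D1:**
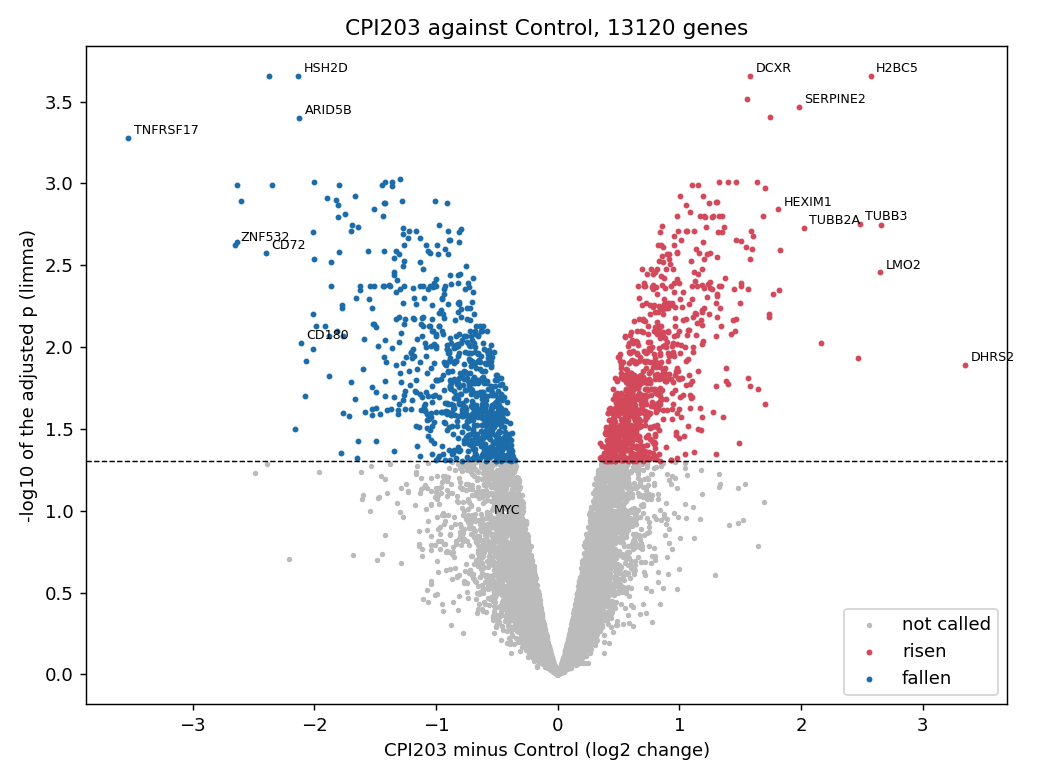
Log2 change with CPI203 against Control (horizontal axis) and -log10 of limma's adjusted p (vertical axis) for the 13120 genes tested, with risen genes in red, fallen genes in blue and the threshold of 0.05 as a dashed line. TNFRSF17 lies farthest to the left at -3.53 and DHRS2 farthest to the right at 3.35, while MYC lies below the line.

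The genes that BET inhibitors act through responded first of all at HEXIM1, whose product holds P-TEFb inactive and whose RNA is widely used as a marker of BET inhibition. In what follows, levels of the 3 lines are given in the order OCI-LY3, OCI-HBL1, OCI-LY10. HEXIM1 stood at 8.23, 8.75 and 8.63 in Control and at 10.26, 10.17 and 10.61 with CPI203. Every treated array was above every Control array. The rise was 1.81 ± 0.20 (log2 change ± SE, n = 3, adjusted p = 0.0014), a 3.51-fold increase, and all 5 of its tested probe sets rose, by 1.70 to 2.34. Its paralogue HEXIM2 went the other way, from 7.39, 7.05 and 6.94 to 6.51, 6.03 and 6.15, a change of -0.90 ± 0.17 (adjusted p = 0.011).

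BRD2, itself a BET protein, was at 9.95, 9.89 and 9.93 in Control and at 10.71, 10.68 and 10.60 with CPI203, a rise of 0.74 ± 0.10 (adjusted p = 0.0036). Its levels differed little between the lines within each group. BRD3 stood at 0.34 ± 0.11 and was not called (adjusted p = 0.076). CDK9, the kinase of P-TEFb, rose by 0.84 ± 0.18 (adjusted p = 0.018), and so did 2 genes of the super elongation complex, MLLT3 by 0.84 ± 0.19 and AFF4 by 0.55. Genes of the pausing factor NELF fell, NELFCD by 0.72 and NELFA by 0.68 on the log2 scale. Of the 25 tested genes of BET proteins, P-TEFb and elongation factors, 5 rose, 3 fell and 17 did not pass. Their median change was 0.21, and -0.10 under spike-in scaling, where 1 rose and 3 fell. Leaving out OCI-LY3, OCI-HBL1 or OCI-LY10 left 1, 4 and 1 calls in the list.

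Further genes often cited as readouts of BET inhibitors behaved unequally. The 8 tested genes listed as such markers, HEXIM1 among them, had a median change of 0.03, or -0.28 under spike-in scaling. ZCCHC24, a zinc finger gene, rose by 1.46 ± 0.24 (adjusted p = 0.0067), while ZMYND8, a reader of acetylated chromatin, fell by 1.59 on the log2 scale (SE 0.29, adjusted p = 0.009). SERPINI1, a serpin gene, stood at 0.55 ± 0.28 and was not called (adjusted p = 0.24). MYC, the growth regulator most often followed in work on BET inhibitors, stood at 11.90, 11.77 and 11.08 in Control and at 11.07, 11.25 and 10.71 with CPI203. It was lower in each line, and the highest treated array lay above the lowest Control array. Its change of -0.57 ± 0.21 did not pass (adjusted p = 0.11), and under spike-in scaling it was -0.88 (adjusted p = 0.04).

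**Figure D2:**
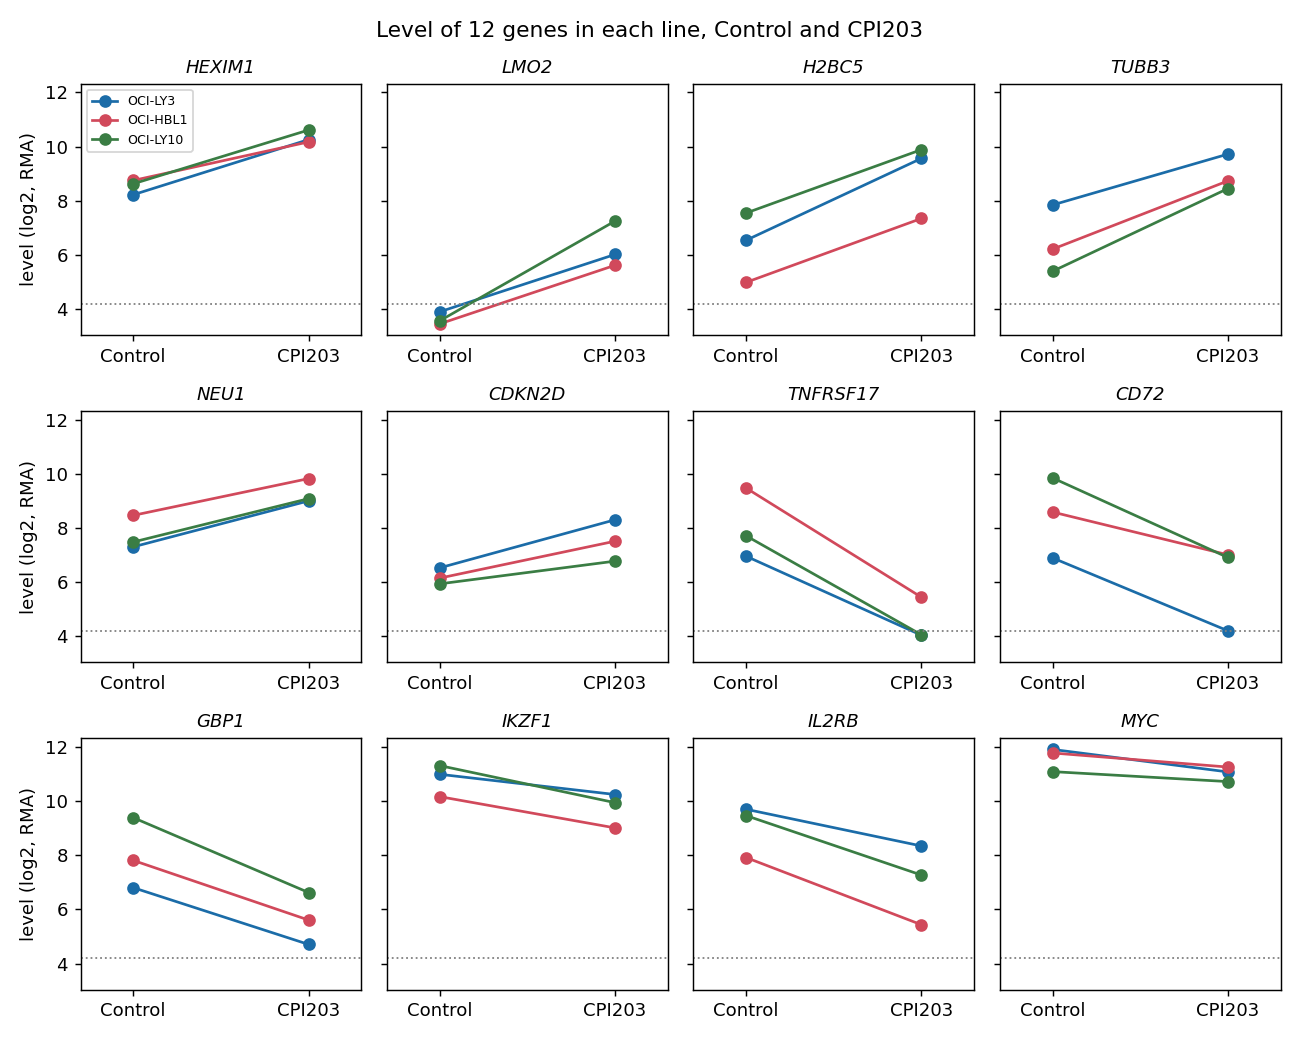
Log2 level of 12 genes in Control and CPI203, with 1 line of points per cell line and the filter level of 4.20 dotted. HEXIM1, LMO2, H2BC5, TUBB3, NEU1 and CDKN2D are higher with CPI203 in each line, and TNFRSF17, CD72, GBP1, IKZF1, IL2RB and MYC are lower in each line.

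The steepest rises included genes that were near or below the filter level in Control. DHRS2, a short-chain dehydrogenase gene, was at 4.22, 4.23 and 4.07 in Control and at 5.72, 7.73 and 9.12 with CPI203. All 3 lines started from the same low level and ended far apart. The rise was 3.35 ± 0.66 (adjusted p = 0.013), and it was not called where OCI-HBL1 or OCI-LY10 was left out (adjusted p = 0.11 and 0.051). LMO2, an adaptor of transcription factors that marks germinal centre B cells, went from 3.91, 3.46 and 3.58 to 6.02, 5.62 and 7.25. Every Control array was below the filter level, so the rise of 2.65 ± 0.37 (adjusted p = 0.0035, and 0.051 without OCI-LY3) may understate the change. A second tested probe set of LMO2 had a change of 0.07.

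Other strong rises were of genes above the filter level in each Control array. SERPINE2, which encodes a secreted protease inhibitor, stood at 6.21, 4.77 and 7.21 in Control and at 8.44, 6.35 and 9.34 with CPI203, a rise of 1.98 ± 0.15 (adjusted p = 0.00034). ZSWIM6, a zinc finger gene, rose by 1.74 ± 0.14 (adjusted p = 0.00039), SERTAD1, whose product binds CDK4, by 1.77 ± 0.27 (adjusted p = 0.0047), and NMT2, an N-myristoyltransferase gene, by 1.82 ± 0.28 (adjusted p = 0.0045). DCXR, a carbonyl reductase gene named after its values were seen for its low adjusted p, rose from 9.19, 9.0 and 8.82 to 10.81, 10.58 and 10.37. Its rise of 1.58 ± 0.10 (adjusted p = 0.00022) was near equal in the lines. Of the 15 genes with the highest changes, 8 were called in each of the 3 fits that leave out a line.

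Among the falls, TNFRSF17, which encodes the plasma cell receptor BCMA, was the deepest. It stood at 6.96, 9.47 and 7.71 in Control and at 4.05, 5.45 and 4.06 with CPI203. The groups did not overlap, and in OCI-LY3 and OCI-LY10 the treated level was below the filter level. The change was -3.53 ± 0.29 (adjusted p = 0.00053), an 11.6-fold fall, which may be larger in those 2 lines. CD72, a coreceptor that dampens B cell receptor signals, went from 6.90, 8.59 and 9.85 to 4.21, 7.01 and 6.91. It was lower in each line by at least 2-fold, although the lines differ so much that the groups overlap. The paired change was -2.40 ± 0.32 (adjusted p = 0.0027).

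ZNF532, a zinc finger gene, fell from 9.83, 7.95 and 8.89 to 7.62, 5.21 and 5.90, a change of -2.65 ± 0.34 (adjusted p = 0.0024). All 5 of its probe sets fell, by 1.36 to 2.65 on the log2 scale. MYOCD, known as a coactivator of smooth muscle genes, was at 11.24, 8.61 and 9.67 in Control and at 9.63, 6.05 and 5.94 with CPI203, a change of -2.64 ± 0.33 (adjusted p = 0.0023). Other tissue genes were among the deepest falls, namely CACNA1A, a neuronal calcium channel gene, at -2.64 ± 0.26 and the kinesin gene KIF26B at -2.61 ± 0.27. ARID5B, a chromatin cofactor gene, went from 8.46, 9.10 and 9.88 to 5.81, 7.26 and 7.99, a change of -2.12 ± 0.17 (adjusted p = 0.0004). HSH2D, an adaptor gene of lymphocyte receptors, changed by -2.13 ± 0.15 (adjusted p = 0.00022), while its other tested probe set had a change of -0.04. Of the 15 genes with the lowest changes, 10 were called in each of the fits that leave out a line. The others were P2RY14, CD180, CXCL9, CBFA2T3 and EPSTI1, each of which lost its call without OCI-LY10 (adjusted p = 0.18, 0.086, 0.14, 0.1 and 0.12). The first 4 also lost it without OCI-LY3 (adjusted p = 0.28, 0.058, 0.17 and 0.09) and EPSTI1 without OCI-HBL1 (adjusted p = 0.11). In the fit without OCI-LY10 the changes of these genes, in the order named, were -1.72, -2.27, -2.11, -2.03 and -1.59. With all lines they were -2.16, -2.11, -2.08, -2.07 and -2.02.

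**Figure D3:**
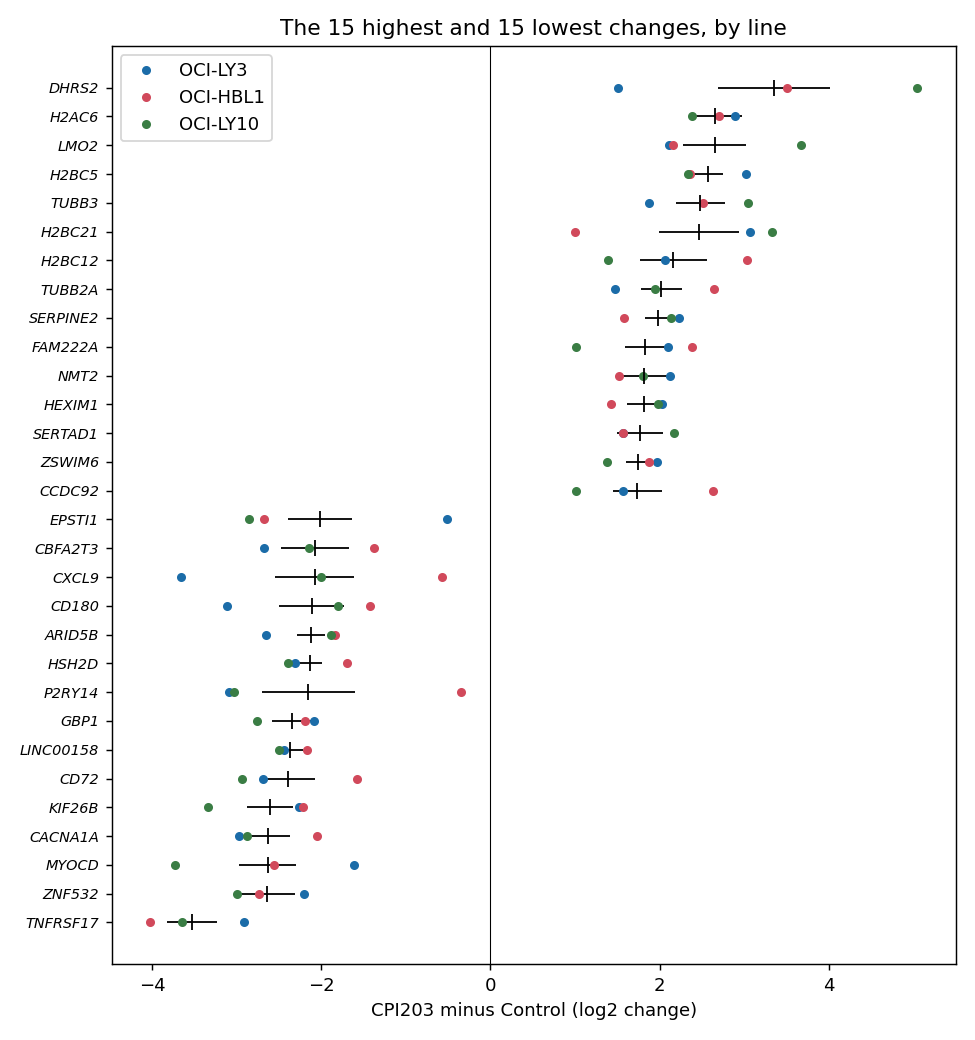
Log2 change with CPI203 in each line (points) and limma's mean change ± SE (black tick and bar) for the 15 called genes with the highest and the 15 with the lowest changes. H2AC6 and LINC00158 have points close together, and DHRS2, H2BC21, MYOCD, P2RY14, CXCL9 and EPSTI1 have points spread over more than 2 log2 units.

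Gene lists, written with earlier results of these data known, were described by their counts of calls. These were set against the 6.92% risen and 6.21% fallen among all genes. The shares of fallen members were highest for interferon sensors (40.9%) and interferon effectors (40.4%). The shares of risen members were highest for tubulins (35.3%) and p53 targets (29.6%). Among cytosolic ribosomal protein genes limma called 0 of 67, with 0 at an unadjusted p under 0.05 and 0 with trended and robust variances, and their median change was 0.02, or -0.28 under spike-in scaling.

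**Figure D4:**
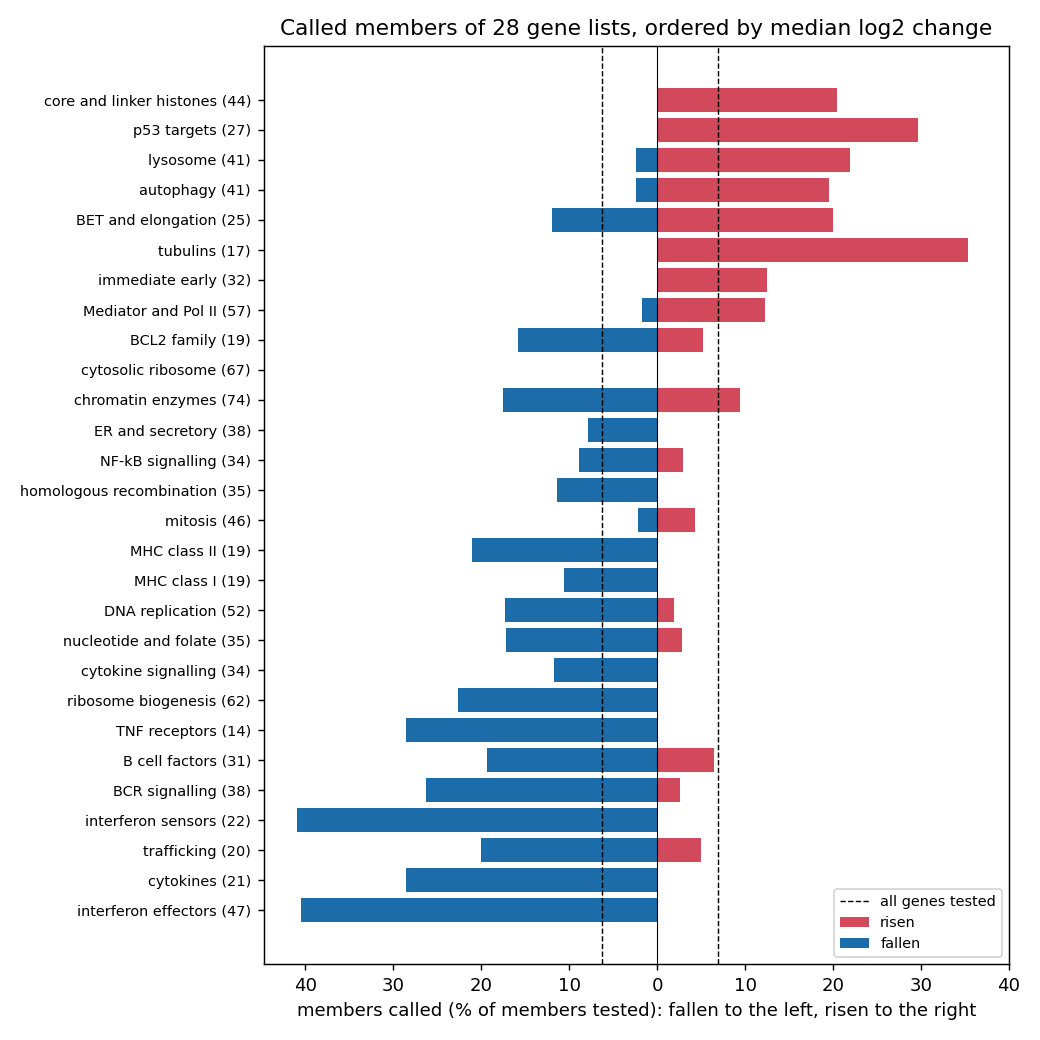
Percent of tested members that fell (blue, to the left) or rose (red, to the right) with CPI203 in 28 gene lists, each with its number of members tested, ordered by median log2 change. Dashed lines mark 6.21% and 6.92%, the shares of all genes tested, and interferon effectors lie at the bottom, below cytokines and trafficking, and histones at the top.

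A share of the histone genes rose. The replication-dependent core histones and the linker histones, which package DNA, had 44 of 66 listed genes tested, 13 below the filter and 9 without a probe set of their own. Of the 44, 9 rose and 35 did not pass. limma called 0 fallen, with 0 lower at an unadjusted p under 0.05 and 0 with trended and robust variances. The median change was 0.49, against 0.00811 for all genes, and 31 members were higher in all 3 lines. Under spike-in scaling the median was 0.18 and again 9 rose. Calls in the list numbered 5, 12 and 5 with OCI-LY3, OCI-HBL1 or OCI-LY10 left out.

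H2BC5 stood at 6.55, 4.99 and 7.55 in Control and at 9.57, 7.35 and 9.89 with CPI203, a rise of 2.57 ± 0.18 (adjusted p = 0.00022). All 3 of its probe sets rose. H2AC6 went from 5.28, 4.85 and 6.81 to 8.17, 7.56 and 9.20, a rise of 2.66 ± 0.31 (adjusted p = 0.0018), and its groups did not overlap. H2BC21 was higher by 3.07 in OCI-LY3 and 3.33 in OCI-LY10 but by 0.99 in OCI-HBL1, a mean rise of 2.47 ± 0.48 (adjusted p = 0.012, and 0.13 both without OCI-LY3 and without OCI-LY10). H2BC12 rose by 2.16 ± 0.39 and H2BC11 by 1.74 ± 0.29. The linker histone genes H1-10 and H1-2 rose as well, H1-10 from 6.99, 5.64 and 4.90 to 8.68, 7.19 and 6.70 (1.68 ± 0.19, adjusted p = 0.0016) and H1-2 by 1.61 ± 0.20. Of 7 tested histone variant genes, H2AX rose by 0.62 and H3-3B by 0.41, and 5 did not pass. The median of these variants was 0.24, or -0.06 under spike-in scaling, where 0 rose and 0 fell. Core histone genes are near-identical copies, and probes may be shared between them.

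Promoters of H2B genes are known for an octamer element, ATTTGCAT, bound by POU factors. In a window from 250 bases before to 50 after each gene's start, taken from RefSeq on GRCh38.p14, the octamer was found on either strand in 13 of the 17 H2B genes of the list (76.5%) and in 1.80% of 27305 promoters. It was present in 24 of the 60 matched histone genes (40%) and in 6 of the 9 that rose (66.7%), and in 1.42% of tested, 1.81% of risen and 1.78% of fallen genes. The stretches around it are shown for 3 risen H2B genes, each on its own strand, with the octamer in capitals. They lie at chr1:149886683-149886768 (minus strand), chr6:27146859-27146944 (minus) and chr6:27132796-27132882 (minus).
H2BC21: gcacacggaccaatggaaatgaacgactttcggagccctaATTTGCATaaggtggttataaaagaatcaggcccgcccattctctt
H2BC12: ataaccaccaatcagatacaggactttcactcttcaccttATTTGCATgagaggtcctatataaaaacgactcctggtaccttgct
H2BC11: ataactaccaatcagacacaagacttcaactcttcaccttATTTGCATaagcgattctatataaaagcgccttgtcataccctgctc
A CCAAT box lies before the octamer and a TATAAA box after it in each stretch. These letters were not found as an octamer in the window of H2BC5, the H2B gene with the highest rise.

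A large share of the interferon-stimulated genes fell. The effectors, which block viral replication or present signals of infection, had 47 of 53 genes tested. Of these, 19 fell and 28 did not pass. limma called 0 risen, with 0 higher at an unadjusted p under 0.05 and 0 with trended and robust variances. The median change was -0.81, and 37 members were lower in all 3 lines. By line, the median was smallest in OCI-LY3 at -0.34, and OCI-HBL1 had -0.78 and OCI-LY10 -0.81. The fits that leave out each line in that order called 10, 10 and 7 members, of which 8, 9 and 7 were among the 19.

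GBP1, an interferon-induced GTPase gene, stood at 6.80, 7.81 and 9.38 in Control and at 4.71, 5.61 and 6.62 with CPI203. It fell in each line by more than 4-fold. The change was -2.35 ± 0.23 (adjusted p = 0.001), and all 5 of its probe sets fell. SAMD9L, an antiviral gene, went from 6.51, 6.99 and 9.46 to 5.37, 4.94 and 7.72, a change of -1.64 ± 0.19 (adjusted p = 0.0018). TRIM22, whose product restricts viruses, changed by -1.51 ± 0.17 (adjusted p = 0.0014). In OCI-LY3 several effectors were low from the start. EPSTI1 was at 4.89 there against 8.07 in OCI-HBL1 and 7.0 in OCI-LY10, and it reached 4.38, 5.39 and 4.14 with CPI203. IFI44L was at 3.89, 8.45 and 5.90 in Control and at 3.66, 5.48 and 4.16 with CPI203, a change of -1.65 ± 0.44 (adjusted p = 0.038). Leaving out OCI-HBL1 or OCI-LY10 ended the calls of EPSTI1 (adjusted p = 0.11 and 0.12) and IFI44L (adjusted p = 0.26 and 0.17). The antiviral GTPase gene MX1 fell from 5.48, 10.69 and 9.75 to 4.25, 8.97 and 7.95, a change of -1.58 ± 0.38.

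Some genes that sense nucleic acids or carry the interferon signal fell as well. Of 22 tested sensors, adaptors and interferon regulatory factors, 9 fell and 13 did not pass, with a median of -0.51. limma called 0 risen, with 1 higher at an unadjusted p under 0.05 and 0 with trended and robust variances. IRF5, an interferon regulatory factor gene, stood at 6.23, 6.59 and 7.73 in Control and at 4.81, 5.36 and 6.34 with CPI203, a change of -1.35 ± 0.18 (adjusted p = 0.0029). IRF2 changed by -1.16 ± 0.21, and the sensors IFIH1, CGAS and IFI16 by -0.83, -0.85 and -0.77. Leaving out OCI-LY3, OCI-HBL1 or OCI-LY10 left 1, 3 and 4 calls.

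The core of the interferon response element, GAAANNGAA, was found on either strand in the same window of 30 of the 43 effectors with a RefSeq promoter (69.8%), against 8.29% of the 27305 promoters. Among effectors that fell it was in 13 of 17 (76.5%). It was also in 18 of the 60 matched histone genes (30%), and in 10 of the 17 H2B genes (58.8%). Of the 9 histone genes that rose, 4 held it (44.4%). Over all genes the element was present in 7.88% of fallen, 4.40% of risen and 6.48% of tested genes. Of the 692 tested genes that hold it, 7.66% fell and 4.91% rose. Of the 9987 whose window lacks it, 6.21% fell and 7.39% rose. A link between the element and the direction of change was not tested. The stretch around the element, in capitals, is shown for 4 effectors that fell, at chr1:89065286-89065374 (minus strand), chr13:42992243-42992331 (minus), chr1:78620244-78620332 (plus) and chr7:93118067-93118155 (minus).
GBP1: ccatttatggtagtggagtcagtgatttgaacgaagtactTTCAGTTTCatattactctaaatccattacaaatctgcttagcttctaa
EPSTI1: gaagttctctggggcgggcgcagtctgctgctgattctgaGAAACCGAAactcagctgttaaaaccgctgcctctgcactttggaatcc
IFI44L: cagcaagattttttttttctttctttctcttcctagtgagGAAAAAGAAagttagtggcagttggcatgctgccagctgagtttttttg
SAMD9: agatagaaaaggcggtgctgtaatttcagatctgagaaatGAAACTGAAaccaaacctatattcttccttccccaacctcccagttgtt
In GBP1 the element is read on the opposite strand. SAMD9, the neighbour and paralogue of SAMD9L, stood at 6.62, 7.18 and 8.64 in Control and at 5.72, 5.22 and 8.10 with CPI203, a change of -1.13 ± 0.25 (adjusted p = 0.019).

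Several adaptor and kinase genes of B cell receptor signalling fell. Of 38 tested genes, 10 fell, 1 rose and 27 did not pass, with a median of -0.44. LAT2, a membrane adaptor, stood at 9.95, 9.06 and 10.43 in Control and at 8.33, 7.34 and 8.09 with CPI203. The highest treated level lay below the lowest Control level. Its change was -1.89 ± 0.20 (adjusted p = 0.0012), and all 4 of its probe sets were called. BLK, a SRC-family kinase of B cells, went from 9.92, 9.75 and 8.51 to 8.72, 8.16 and 6.99, a change of -1.44 ± 0.16 (adjusted p = 0.0016). RASGRP1, which activates RAS, changed by -1.54 ± 0.23, DOK3, an inhibitory adaptor, by -1.86 ± 0.28 and PIK3CG, a PI3-kinase subunit, by -1.43 ± 0.21. SYK, the kinase next to the receptor, changed by -0.57. FYN, a SRC-family kinase more typical of T cells, rose from 5.26, 6.39 and 3.50 to 6.76, 7.42 and 4.33, by 1.12 ± 0.16 (adjusted p = 0.0039, and 0.073 without OCI-LY3). The list held 5, 6 and 7 calls with OCI-LY3, OCI-HBL1 or OCI-LY10 left out.

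Among transcription factors of B cells, 6 fell, 2 rose and 23 of 31 did not pass, with a median of -0.28. The Ikaros family members IKZF1 and IKZF3, needed for lymphoid development, both fell. IKZF3 stood at 8.18, 7.32 and 8.31 in Control and at 7.22, 5.91 and 6.37 with CPI203, a change of -1.43 ± 0.21 (adjusted p = 0.0042). IKZF1 changed by -1.09 ± 0.25 (adjusted p = 0.022). BATF, a partner of IRF4, changed by -1.41 ± 0.28, POU2AF1, the B cell coactivator of octamer factors, by -1.07 ± 0.22, and EBF1, an early B cell factor, by -0.74 ± 0.19. LMO2 and FOXO1 rose, FOXO1 by 0.45 ± 0.12. Regulators at the centre of this lymphoma gave no call, with BCL6 at -0.16 ± 0.14, IRF4 at -0.25 ± 0.26 and PAX5 at -0.04 ± 0.22 (adjusted p = 0.5, 0.58 and 0.93). These are their brightest probe sets. The other probe set of IRF4 stood at -0.88 and was not called, and of the 8 tested probe sets of PAX5 1 was called, with the lowest at -1.23. Without OCI-LY3 1 gene of the list was called, without OCI-HBL1 3 and without OCI-LY10 2. MS4A1 fell by 0.75 on the log2 scale (SE 0.12, adjusted p = 0.0068) and the adaptor gene BANK1 by 1.02 (SE 0.25).

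Some TNF receptor and cytokine genes fell, and most did not pass. Of 14 tested TNF receptor genes, 4 fell and 10 did not pass. limma called 0 risen, with 2 higher at an unadjusted p under 0.05 and 1 risen with trended and robust variances. Beside TNFRSF17 these were TNFRSF13B (TACI, the other receptor of APRIL) at -0.71 ± 0.16, TNFRSF1B (TNF receptor 2) at -0.86 ± 0.20 and TNFRSF14 at -0.89 ± 0.26. Of 21 tested cytokine genes, 6 fell and 15 did not pass, with a median of -0.65. limma called 0 risen, with 2 higher at an unadjusted p under 0.05 and 1 risen with trended and robust variances. IL16, a chemoattractant, stood at 11.07, 6.94 and 10.05 in Control and at 9.53, 5.35 and 7.53 with CPI203. It fell in each line by over 2-fold, from levels that differ widely between the lines. The change was -1.88 ± 0.33 (adjusted p = 0.0085). IL23A changed by -1.70 ± 0.36, the chemokine gene CCL22 by -1.49 ± 0.33 and the interleukin subunits IL12A and EBI3 by -1.27 and -1.08. Cytokine calls numbered 1, 8 and 2 with OCI-LY3, OCI-HBL1 or OCI-LY10 left out. TNF receptor calls numbered 1, 2 and 1 in the same order.

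A minority of cytokine receptor and trafficking genes fell. Of 34 genes of cytokine receptors and JAK-STAT signalling, 4 fell and 30 did not pass. limma called 0 risen, with 1 higher at an unadjusted p under 0.05 and 1 risen with trended and robust variances. IL2RB, the shared receptor chain of IL2 and IL15, went from 9.69, 7.91 and 9.46 to 8.34, 5.43 and 7.27, a change of -2.01 ± 0.25 (adjusted p = 0.002). The receptor genes IL15RA, IL6R and IL21R changed by -1.41, -1.04 and -1.02, with 2 calls in the list without any one of the lines. Of 20 trafficking and adhesion genes, 4 fell, 1 rose and 15 did not pass, with a median of -0.57. P2RY8, a receptor that confines B cells to germinal centres, went from 9.27, 8.77 and 8.57 to 8.69, 7.86 and 4.72. Its change of -1.78 ± 0.50 (adjusted p = 0.044) rests mostly on OCI-LY10, and it was not called without OCI-LY3, OCI-HBL1 or OCI-LY10 (adjusted p = 0.11, 0.11 and 0.063). The integrin genes ITGAL and ITGA4 fell by 1.32 and 0.71 on the log2 scale, and ITGB1 rose by 0.67 ± 0.16. ITGA4 stood at 4.17, 4.27 and 6.04 in Control and at 3.80, 3.70 and 4.85 with CPI203. In OCI-LY3 and OCI-HBL1 it was thus near or below the filter level of 4.20. No more than 1 trafficking gene was called in any fit that leaves out a line, and that call came without OCI-HBL1.

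In the MYD88 pathway 32.0% of the tested genes were called, and in NF-kB signalling 11.8%, beside the 13.1% of all genes. Of 25 tested genes of Toll-like receptors and the MYD88 pathway, 5 fell, 3 rose and 17 did not pass, with a median of -0.05. TLR10, a B cell Toll-like receptor, stood at 9.43, 8.83 and 6.05 in Control and at 7.55, 7.35 and 4.43 with CPI203, a change of -1.66 ± 0.17 (adjusted p = 0.0012). CD180, a Toll-like receptor relative on B cells, changed by -2.11 ± 0.38 and TLR9 by -1.05 ± 0.27. The adaptor gene MYD88 went from 9.76, 9.27 and 9.67 to 8.89, 8.36 and 9.28, a change of -0.72 ± 0.13 (adjusted p = 0.008, with 0.12 without OCI-LY3 and 0.074 without OCI-HBL1). TOLLIP, an inhibitor of the pathway, rose by 0.61 ± 0.12, and the kinase partners TAB3 and MAP3K7 rose by 0.70 and 0.46. Of 34 tested NF-kB signalling genes, 3 fell, 1 rose and 30 did not pass. TRAF1 and TRAF5, adaptors of TNF receptors, changed by -1.66 ± 0.38 and -1.43 ± 0.15. MAP3K14, the NF-kB-inducing kinase gene, rose by 0.74 ± 0.13, and RELA stood at 0.12 ± 0.17 (adjusted p = 0.68). Leaving out OCI-LY3, OCI-HBL1 or OCI-LY10 left 1, 3 and 2 calls in the MYD88 list and 1, 2 and 2 in the NF-kB list.

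Among genes of antigen presentation, MHC class II genes had the larger share of falls. Of 19 tested MHC class II genes, 4 fell and 15 did not pass. limma called 0 risen, with 0 higher at an unadjusted p under 0.05 and 0 with trended and robust variances. Those that fell were RFX5 and RFXAP, which bind the promoters of the class, by 1.02 and 0.62 on the log2 scale, HLA-DOA, a brake on peptide loading, by 0.77 and the protease gene CTSS by 0.68. Of 19 class I genes, TAPBPL and ERAP1 fell, by 1.0 and 0.61 on the log2 scale, a share of 10.5% beside the 6.21% of all genes. Without OCI-LY3 or without OCI-LY10 no gene of either list was called.

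Growth genes fell in part. Of 62 tested ribosome biogenesis genes, which make and assemble ribosomal RNA, 14 fell and 48 did not pass, with a median of -0.24. limma called 0 risen, with 0 higher at an unadjusted p under 0.05 and 0 with trended and robust variances. Among them, 39 were lower in all 3 lines and 0 higher in all 3. EMG1, an rRNA methyltransferase gene, stood at 10.85, 11.33 and 10.09 in Control and at 9.95, 10.37 and 8.88 with CPI203, a change of -1.02 ± 0.15 (adjusted p = 0.0041, and 0.062 without OCI-LY3). UBTF, the RNA polymerase I factor gene, changed by -0.89 ± 0.19 and TCOF1, its partner in rRNA transcription, by -0.75 ± 0.12. The calls numbered 0, 6 and 1 with OCI-LY3, OCI-HBL1 or OCI-LY10 left out. The E-box CACGTG, a site bound by MYC and related factors, was found in the promoter window of 22 of the 54 matched genes of this list (40.7%), 4 of the 12 matched fallen ones (33.3%) and 7.43% of all promoters. Of the 14 tested genes of the MYC network itself, the repressor gene MXD4 rose by 0.74 ± 0.21 and 13 did not pass, with a median of 0.08, or -0.22 under spike-in scaling. limma called 0 fallen, with 2 lower at an unadjusted p under 0.05 and 0 with trended and robust variances.

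Nucleotide, folate and polyamine genes had 6 of 35 members fallen and 1 risen, with a median of -0.20. SLC19A1, the folate carrier gene, went from 7.82, 8.26 and 7.13 to 6.51, 6.73 and 5.94, a change of -1.34 ± 0.19 (adjusted p = 0.0035, and 0.053 without OCI-LY10). PFAS, of purine synthesis, changed by -0.81 ± 0.13 and the mitochondrial folate gene MTHFD1L by -0.71 ± 0.15. SAT1, which breaks down polyamines, rose from 10.68, 7.86 and 9.41 to 11.48, 9.82 and 11.16, by 1.5 ± 0.22 (adjusted p = 0.0042). The fit without OCI-LY10 gave 0 calls in this list, and those without OCI-LY3 or OCI-HBL1 gave 2 and 4. Without OCI-HBL1, 3 of the calls were also calls of the full fit.

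Of 52 DNA replication genes, 9 fell, 1 rose and 42 did not pass, with a median of -0.15. MCM2, a subunit of the replicative helicase, stood at 10.30, 10.50 and 9.97 in Control and at 9.30, 9.65 and 9.11 with CPI203. No treated array reached the lowest Control level. The change was -0.90 ± 0.14 (adjusted p = 0.0054), and POLE2, a polymerase subunit gene, changed by -0.91 ± 0.17. The other MCM calls were small, MCM6 at -0.37 and MCM7 at -0.43. Among homologous recombination genes 4 of 35 fell, RAD50 by 0.77, NBN by 0.58, RAD51AP1 by 0.43 and TOPBP1 by 0.35 on the log2 scale. Mitosis genes had 2 of 46 risen and 1 fallen, shares below those of all genes. The fits without OCI-LY3 or OCI-LY10 gave 0 replication calls. Without OCI-HBL1 there were 3, of which 2 were also calls of the full fit. For homologous recombination the counts were 0 without OCI-LY3 and 1 in each of the other fits, and for mitosis 0 in each.

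In the G1 list, CDKN2D, which encodes the CDK4 and CDK6 inhibitor p19, rose from 6.53, 6.15 and 5.94 to 8.30, 7.51 and 6.78. All treated arrays were above all Control arrays, and the rise was 1.32 ± 0.20 (adjusted p = 0.0042, and 0.064 without OCI-LY3). CDK4 itself fell by 0.53, E2F2 by 1.04 and RBL2 by 0.44 on the log2 scale. The other 22 of 26 members did not pass, among them CDKN1A at 0.13 ± 0.21, CDKN1B at 0.22 ± 0.14 and E2F1 at -0.31 ± 0.14. The fits without OCI-LY3, OCI-HBL1 or OCI-LY10 gave 1, 2 and 1 calls, of which 1 in each was also a call of the full fit. CDKN1A, the p53-induced p21 gene, moved unequally in the lines, from 10.59, 10.45 and 9.42 to 10.16, 11.20 and 9.47.

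Some other p53 targets rose. Of 27 tested, 8 rose and 19 did not pass, with a median of 0.35, or 0.04 under spike-in scaling, where 1 rose and 3 fell. limma called 0 fallen, with 3 lower at an unadjusted p under 0.05 and 0 with trended and robust variances. TIGAR, which lowers glycolytic flux, stood at 8.44, 7.73 and 9.05 in Control and at 9.20, 8.51 and 9.89 with CPI203, a rise of 0.79 ± 0.13 (adjusted p = 0.0055). TP53INP1, an autophagy and stress gene, rose by 1.07 ± 0.27, the stress genes GADD45A and SESN2 by 0.86 ± 0.21 and 0.85 ± 0.18, and PPM1D, a phosphatase that acts on p53, by 0.51. Calls in the list numbered 0, 6 and 1 with OCI-LY3, OCI-HBL1 or OCI-LY10 left out, and 1 of the 6 was a fall.

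In the BCL2 family, which sets the threshold of apoptosis, the BH3-only genes BMF and BID fell on the log2 scale, by 0.95 (SE 0.15) for BMF and 0.85 (SE 0.19) for BID, and the survival gene BCL2L2 by 0.77 (SE 0.14). BNIP3L, a mitophagy receptor gene, rose by 0.57 ± 0.11. The family's median was 0.10, or -0.20 under spike-in scaling. The 15 other tested members did not pass, with BCL2 at 0.32 ± 0.16, MCL1 at 0.34 ± 0.15 and BCL2L11, which encodes BIM, at 0.23 ± 0.27. BMF stood at 8.41, 8.14 and 8.29 in Control and at 7.51, 7.09 and 7.38 with CPI203, with no overlap. It and BID were called without OCI-HBL1, but not without OCI-LY3 (adjusted p = 0.059 and 0.18) or without OCI-LY10 (adjusted p = 0.057 and 0.12).

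Some lysosome and autophagy genes rose on the deposited scale. Of 41 tested lysosome genes, 9 rose, 1 fell and 31 did not pass, with a median of 0.26, which turned to -0.05 under spike-in scaling, where 2 rose and 1 fell. NEU1, a lysosomal sialidase gene, went from 7.30, 8.47 and 7.48 to 9.0, 9.82 and 9.08. The lowest treated level lay above the highest Control level. The rise was 1.55 ± 0.20 (adjusted p = 0.0024, and 0.063 without OCI-LY3). SMPD1, acid sphingomyelinase, rose by 1.17 ± 0.20, the protease gene CTSB by 0.80 ± 0.22 and the cholesterol exporter gene NPC1 by 0.80 ± 0.23. CLN3, of the lysosomal membrane, changed by -1.11 ± 0.15, and all 8 of its probe sets were called. The E-box was found in the promoter window of 10 of 30 matched lysosome genes (33.3%).

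Among 41 tested autophagy genes, 8 rose and 1 fell, with a median of 0.25, or -0.06 under spike-in scaling, where 1 rose and 2 fell. MAP1LC3B, which encodes the LC3 protein of autophagosomes, rose by 0.89 ± 0.20 (adjusted p = 0.021), WIPI1 by 1.01 ± 0.25, ATG2A by 0.86 ± 0.13 and the cargo receptor gene SQSTM1 by 0.59. TFEB, the transcription factor that drives lysosome genes, went from 7.76, 8.78 and 8.06 to 7.20, 7.99 and 6.40, a change of -1.0 ± 0.24 (adjusted p = 0.025). No autophagy gene was called without OCI-LY3 or without OCI-LY10, and 4 were without OCI-HBL1. Lysosome calls were 1 fallen without OCI-LY3, 2 risen without OCI-HBL1, and 1 in each direction without OCI-LY10.

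Tubulin genes, the building blocks of microtubules, had 6 of 17 tested members risen. limma called 0 fallen, with 0 lower at an unadjusted p under 0.05 and 0 with trended and robust variances. Their median change was 0.17, or -0.14 under spike-in scaling, where 3 rose. TUBB3, a beta tubulin typical of neurons, stood at 7.85, 6.22 and 5.40 in Control and at 9.72, 8.74 and 8.45 with CPI203, a rise of 2.48 ± 0.29 (adjusted p = 0.0018). TUBB2A went from 9.77, 7.74 and 9.27 to 11.24, 10.39 and 11.23, a rise of 2.02 ± 0.24 (adjusted p = 0.0019). TUBA1A rose from 10.65, 9.94 and 9.67 to 11.81, 11.36 and 11.29, by 1.40 ± 0.13 (adjusted p = 0.00098). These 3 were called in each of the fits that leave out a line, and they were all 3 calls of each such fit. TUBE1, TUBB4B and TUBB6 rose by 0.61 to 0.66.

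The transcription machinery rose at a few genes. Of 57 tested genes of Mediator, RNA polymerase II and its general factors, 7 rose, 1 fell and 49 did not pass, with a median of 0.12, or -0.19 under spike-in scaling. POLR2A, the largest subunit of RNA polymerase II, stood at 8.35, 7.61 and 8.60 in Control and at 9.47, 8.64 and 9.81 with CPI203. All treated arrays were above all Control arrays. The rise was 1.12 ± 0.14 (adjusted p = 0.002, and 0.052 without OCI-LY3). Mediator's MED19 and CDK19 rose by 0.66 ± 0.10 and 0.59 ± 0.14, and MED24 changed by -0.70 ± 0.13. The list held 0, 3 and 1 calls with OCI-LY3, OCI-HBL1 or OCI-LY10 left out.

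Enzymes and cofactors of chromatin moved both ways. Of 74 tested, 13 fell, 7 rose and 54 did not pass, with a median of 0.02. The demethylase genes KDM3A and KDM5B rose by 1.24 ± 0.20 and 0.88, the DNA methyltransferase gene DNMT3B by 1.1 ± 0.23 and the acetyltransferase gene KAT2B by 0.80. Beside ARID5B, the falls were of the H3K9 methyltransferase gene SUV39H1 by 0.91 (SE 0.17) on the log2 scale, the acetyltransferase gene KAT5 by 0.89 (SE 0.17) and the deacetylase gene HDAC7 by 0.77 (SE 0.21). KDM3A stood at 8.09, 9.03 and 7.84 in Control and at 9.60, 9.77 and 9.31 with CPI203. The list held 2, 9 and 2 calls with OCI-LY3, OCI-HBL1 or OCI-LY10 left out. Under spike-in scaling 2 rose and 13 fell, with a median of -0.28.

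Immediate early genes, which respond within minutes to signals, had 4 of 32 members risen. limma called 0 fallen, with 0 lower at an unadjusted p under 0.05 and 0 with trended and robust variances. Their median was 0.14, or -0.17 under spike-in scaling. EGR1 went from 4.15, 8.78 and 8.86 to 5.44, 10.15 and 10.11, a rise of 1.3 ± 0.28 (adjusted p = 0.017) that was near equal in the lines despite the low level of OCI-LY3. IER3 rose by 0.90 ± 0.12, IER5 by 0.59 ± 0.16 and BTG1, an antiproliferative gene, by 0.55 ± 0.13. Without OCI-LY3 2 rose and 1 fell, and 1 rose in each of the fits without OCI-HBL1 or OCI-LY10.

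The lines differed in how many genes changed at least 2-fold, with the most rises in OCI-LY3 and the most falls in OCI-LY10. Only part of these changes was shared. In OCI-LY3, 338 genes were at least 2-fold higher and 396 at least 2-fold lower. The counts were 252 and 345 in OCI-HBL1 and 299 and 522 in OCI-LY10. Genes past 2-fold in all 3 lines numbered 67 up and 80 down, against 629 and 898 in at least 1 line, and 6 genes went past 2-fold in opposite directions. Across the 13120 genes, the changes of OCI-LY3 and OCI-HBL1 had a Pearson r of 0.524, those of OCI-LY3 and OCI-LY10 of 0.606 and those of OCI-HBL1 and OCI-LY10 of 0.569. These are correlations across genes on arrays normalized together, and each line's change is 1 array against 1.

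Some genes moved in 1 line while staying within 0.3 in both others. Single-line changes were not tested, and a gene near the filter level in a line cannot be seen to fall there. In OCI-LY3, SOCS2, a STAT-induced inhibitor gene, went from 9.56 to 6.24, while it stayed below the filter level in both other lines. GNA15, a G protein gene, fell in OCI-LY3 from 8.37 to 5.21. TSC22D3, a glucocorticoid-induced gene, rose in OCI-LY3 from 5.98 to 8.21 and read 8.52 and 8.65 in OCI-HBL1. In OCI-HBL1, IDO1, an interferon-induced enzyme of tryptophan breakdown, went from 6.55 to 4.27, and the chemokine gene CCL3 rose from 5.71 to 7.86, against 8.52 and 8.54 in OCI-LY10. In OCI-LY10, the adenosine receptor gene ADORA3 went from 6.97 to 4.51 and H2AC7, a histone gene, from 4.15 to 6.55, with H2AC7 below the filter level in both other lines.

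Most genes called with CPI203 alone moved the same way when it was given on top of the IRAK inhibitor. This comparison, Combo against IRAKi, uses none of the 6 arrays above, although it shares the model's estimate of the spread. The label times are 24 h and 6 h, so time and CPI203 cannot be told apart in it. limma called 2456 genes (18.7%), 1077 risen and 1379 fallen. Of the 908 genes that rose with CPI203 alone, 536 rose here too (59.0% of those and 49.8% of the rises here). Of the 815 that fell, 590 fell here too (72.4% and 42.8%). The changes had a Pearson r of 0.753 across genes, and 1671 of the 1723 called genes had the same sign. The share with the same sign among all genes tested was not counted.

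HEXIM1 rose by 1.75 ± 0.20 on top of the IRAK inhibitor and by 1.81 ± 0.20 alone. LMO2 rose by 3.19 ± 0.37 there, H2BC5 by 2.28 ± 0.18 and NEU1 by 1.59 ± 0.20. TNFRSF17 changed by -2.39 ± 0.29 and ARID5B by -2.71 ± 0.17. MYC, which gave no call with CPI203 alone, changed by -1.24 ± 0.21 (adjusted p = 0.0045) on top of the IRAK inhibitor. The difference of its changes was -0.67 ± 0.30 and did not pass (adjusted p = 0.6).

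A test of the difference between both CPI203 effects, added after the data had been seen, called 1 gene of 13120 (0.00762%). It was LINC00158, a non-coding RNA gene. With CPI203 alone it went from 7.02, 7.03 and 6.86 to 4.58, 4.86 and 4.36, a change of -2.37 ± 0.15 (adjusted p = 0.00022). On top of the IRAK inhibitor the changes in the lines were -0.46, -0.01 and -0.44. The difference was 2.07 ± 0.21 (adjusted p = 0.037). SMG5, an RNA decay gene, was called in opposite directions, at 0.60 ± 0.14 alone and -0.46 ± 0.14 on top of the IRAK inhibitor, with a difference that did not pass (adjusted p = 0.44). CXCL9, an interferon-induced chemokine, changed by -2.08 ± 0.46 alone and by 0.45 ± 0.46 on top of the IRAK inhibitor, and RAB38, a small GTPase gene, by 1.59 ± 0.19 and 0.26 ± 0.19. For both the difference did not pass (adjusted p = 0.44). SMG5 and RAB38 were chosen after their values were seen.

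**Figure D5:**
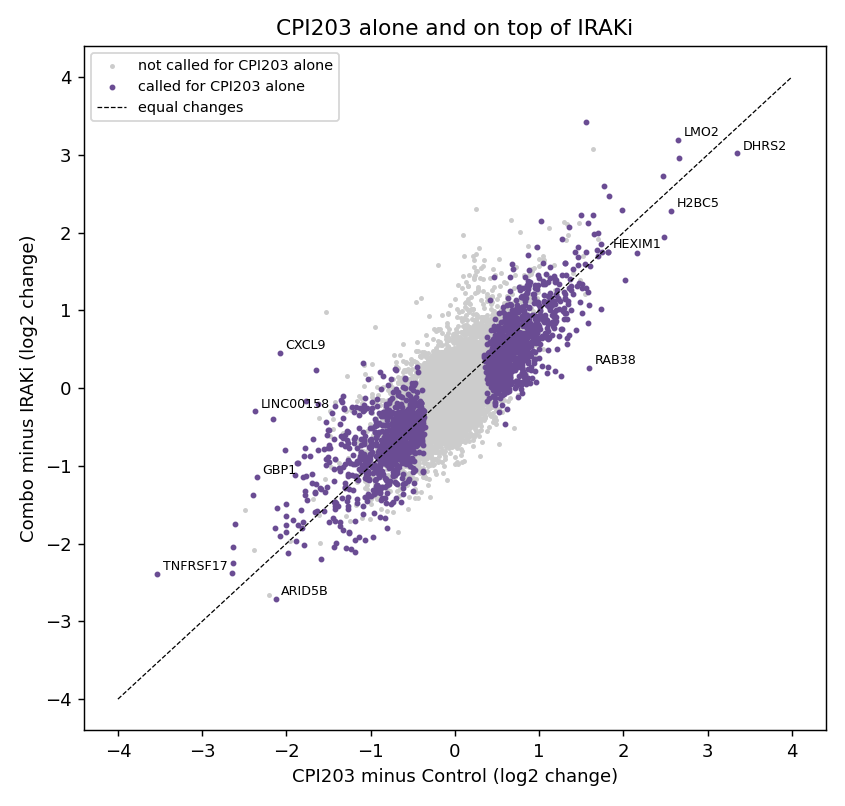
Log2 change of each of the 13120 genes with CPI203 alone (horizontal axis) and with CPI203 on top of the IRAK inhibitor (Combo minus IRAKi, vertical axis), with genes called for CPI203 alone in purple and equal changes on the dashed line. HEXIM1 and H2BC5 lie near the line, and LINC00158, CXCL9 and RAB38 lie near 0 on the vertical axis.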

How the data were processed

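Total RNA (150 ng a sample) was made into biotin-labelled cRNA for Affymetrix arrays, per the labels' protocols. The authors deposited log2 values made with RMA in Affymetrix Expression Console 1.1, per the submitters' processing notes. Which probe library and genome build they used is not given in the sources used here. Gene symbols came from the platform annotation, and 99.82% of them matched RefSeq's gene table. Each gene was represented by its one-gene probe set with the highest mean over 12 arrays. Genes above the 40th percentile of all values (4.20) in at least 3 arrays were tested.

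All 12 arrays were fitted with limma 3.58.1 in R 4.3.3, with treatment and cell line as terms (residual degrees of freedom 6, prior 3.66). Tests were two-sided, with Benjamini-Hochberg adjustment over all genes tested. Line pairs the samples: arrays of the same line deviate from their group means together (r = 0.879 to 0.893). The replicates are cell lines, 1 array each, so the spread behind each p-value is that between these samples alone, and the number of arrays limits the precision. The fit was tested on simulated data.

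Members and gene lists were chosen with earlier results of these data known. Genes named are the 15 highest and 15 lowest changes called one way in all lines, up to 4 called members of each list in its majority direction and 2 in the other, a fixed set (among them MYC, BRD2 and BCL2), and genes that moved in 1 line or in opposite directions. Other members are named within their list's count. The test of the difference between both CPI203 effects was added after seeing the data. Promoter windows run from 250 bases before to 50 after RefSeq starts (GRCh38.p14). The alternatives tried are given in the closing section. Figures were drawn with matplotlib 3.10.9.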

Additional observations from a re-analysis of the deposited data

Results flagged for a closer look

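Some 6 genes went past 2-fold up in at least 1 line and past 2-fold down in another, each as 1 array against 1, and the difference between lines was not tested. The changes of ITGA2, an integrin gene, spanned 3.21 log2 units, from 1.74 in OCI-LY3 to -1.47 in OCI-HBL1. RGS1, a brake on chemokine receptors, spanned 3.14, up in OCI-LY3 and down in OCI-HBL1. SGK1, a kinase gene, spanned 3.13, down in OCI-LY3 and up in OCI-LY10. ARHGAP26 spanned 2.94, CNR1, a cannabinoid receptor gene, 2.19 and SLC16A4, a transporter gene, 2.15.

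Some probe sets stand outside the comparison of genes. Poly-A spike-ins read higher with CPI203 by 0.306 and hybridization controls by 0.175 (log2, n = 3). Among probe sets with no named gene, 118 of 1634 were called (7.22%), and among those that carry several genes, 61 of 860 (7.09%).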

How the results depend on the processing

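Leaving out each line in turn gave 216 to 720 calls, 94 to 374 risen and 122 to 346 fallen, and 526 to 1704 for Combo against IRAKi. These fits have 3 residual degrees of freedom instead of 6. With no replicate block, so that the arrays were not paired by line, 4 genes were called, 2 in each direction. Tested as single probe sets, 3134 of 30492 were called, 1613 risen and 1521 fallen. Scaled to the poly-A spike-ins, 165 rose and 1595 fell. A threshold of at least 2-fold left 380, with 160 risen and 220 fallen. The count stayed within 1.5 times of 1723 when each gene's probe sets were averaged (1834), no filter (1523), a filter at the 60th percentile (2090), median centring (1808), cyclic loess (1800), trended and robust variances (2255), the 6 arrays alone (1194) and without the OCI-LY10 IRAKi array (1580). Of 169 called named genes, 42 kept their call without OCI-LY3, 93 without OCI-HBL1, 48 without OCI-LY10 and 28 in all 3 fits. MKI67, called at 0.39, turned to -0.0548 with the mean of its probe sets, and the cause was not tested. Genes whose Control (28 risen) or CPI203 mean (20 fallen) was below 4.20 may have changed by more than measured, and 5119 genes were too dim to test.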

Other observations

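The shares in this paragraph stand beside 6.92% risen and 6.21% fallen among all genes tested, and several lie near them. Cholesterol genes had 4 of 26 members risen (15.4%) and 1 fallen (3.85%), with a median change of -0.05. MYLIP, which degrades the LDL receptor, rose by 1.06 ± 0.18 (log2 change ± SE, limma adjusted p = 0.0068), and the synthesis genes TM7SF2 and IDI1 by 0.83 ± 0.23 and 0.68 ± 0.16, while the desaturase gene SCD fell by 0.59 on the log2 scale. Genes of the ER and secretory pathway had 3 of 38 fallen (7.89%), among them MZB1, a chaperone of antibody-making cells. MZB1 stood at 5.09, 8.90 and 8.95 in Control and at 4.04, 8.20 and 7.71 with CPI203 (-1.0 ± 0.14, adjusted p = 0.0038). Of 29 tested ATF4 stress genes, 6.90% rose and 10.3% fell. ASNS and SESN2 were up by 0.52 and 0.85, and SLC7A11, AARS1 and PSAT1 down by 1.09, 0.71 and 0.55. Heat shock genes had DNAJB4 up by 0.87 and BAG3 by 0.65 among 25 tested, a risen share of 8.0%. G protein signalling genes had RGS2 up by 1.18 ± 0.30 and ADCY7, an adenylate cyclase gene, down by 1.07 (SE 0.14). Glycolysis and hypoxia genes had 2 of 32 risen (6.25%) and 1 fallen (3.1%), and NRF2 targets 1 of 21 risen (4.76%) and 3 fallen (14.3%). Under spike-in scaling the median changes of these lists turned from 0.06 to -0.25 for glycolysis and hypoxia, from 0.06 to -0.24 for NRF2 targets and from 0.01 to -0.30 for the secretory pathway.

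Called genes were commonest above the lowest levels. Genes were ranked by mean level over the 6 IRAKi and Combo arrays. These arrays entered the model and the filter, and the Combo arrays also had CPI203, so the ranking is not independent of the calls. The lowest 3280 genes held 0.793% risen and 1.28% fallen. The next held 5.76% and 7.84%, the one above 11.8% and 9.85%, and the highest 9.30% and 5.88%. Among 1255 called genes with more than 1 tested probe set, all probe sets changed one way in 86.1%, against 59.0% of genes not called. Named genes with probe sets in both directions included NBN (-0.63 to 0.12), BCL2L2 (-0.77 to 0.09), E2F2 (-1.04 to 0.08), IL23A (-1.70 to 0.06) and ERAP1 (-0.61 to 0.08). Tested as single probe sets, 0 of the 5 of ERAP1 and 0 of the 7 of TNFRSF14 were called.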
